A study of Mus musculus with 4 samples.

Results

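Cluster 7 of the authors' clustering is a group of tumour neutrophils that carried more RNA molecules per cell than most other neutrophils of the same tumours. Its members were the cells that the authors' tables put in cluster 7 of the graph-based clustering and in the class of neutrophils. There were 1340 of them among 8629 neutrophils and 17211 cells in all: 1091 came from the IL-12 library and 249 from the control library. They were set against the 7289 neutrophils of other clusters, 4817 in the IL-12 library and 2472 in the control library. A further 5 cells of cluster 7 in each library bore the label of another class and were left out.

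The mice carried mammary tumours, and the sorted cells were live and positive for CD45, which nearly all leukocytes carry. The IL-12 group had an intratumoral injection of a plasmid for interleukin 12, and the control group of a control plasmid, both followed by electroporation. Cells of 3 mice were pooled per treatment into 1 gene expression library, and without replicates no test between the treatments could be run. The tumour model is given in several ways, as triple-negative breast tumours, as the 4T1 line and, in the growth protocol, as HER2 induced in the mammary tissue of mice aged 1 month. The control cells are labelled isotype in the authors' table and control plasmid in the sample labels. A total of 87 cell barcodes occurred in both libraries; 9 of them were cluster 7 neutrophils in both.

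Neutrophils are short-lived phagocytes that leave the bone marrow with granules already filled and with less RNA than macrophages or lymphocytes. They are drawn to tissue by chemokine receptors such as Cxcr2, and in tumours they can make chemokines and inflammatory cytokines. IL-12 drives T cells and NK cells to make interferon-gamma, and interferons switch on guanylate-binding proteins, antiviral genes and chemokines in many cell types, neutrophils among them.

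The median cell of cluster 7 held 5195 unique molecular identifiers (UMIs, each standing for 1 captured RNA molecule) in the IL-12 library, against 2283 in the library's other neutrophils, a ratio of 2.28. In the control library the medians were 5484 UMIs in cluster 7 and 2399 in other neutrophils, a ratio of 2.29. With cluster 14 set aside, 99.2% of IL-12 and 97.6% of control cluster 7 cells lay above the median of the remaining neutrophils. Against single clusters of at least 50 cells the ratio was 2.25 to 2.601 for clusters 1, 2 and 3 in the IL-12 library and 1.91 to 3.34 for clusters 1, 2 and 4 in the control library. Cluster 14 was the exception. Its median was 9334 UMIs in the IL-12 library and 6051 in the control library, so that cluster 7 stood at 0.557 and 0.906 of its depth.

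**Figure D1:**
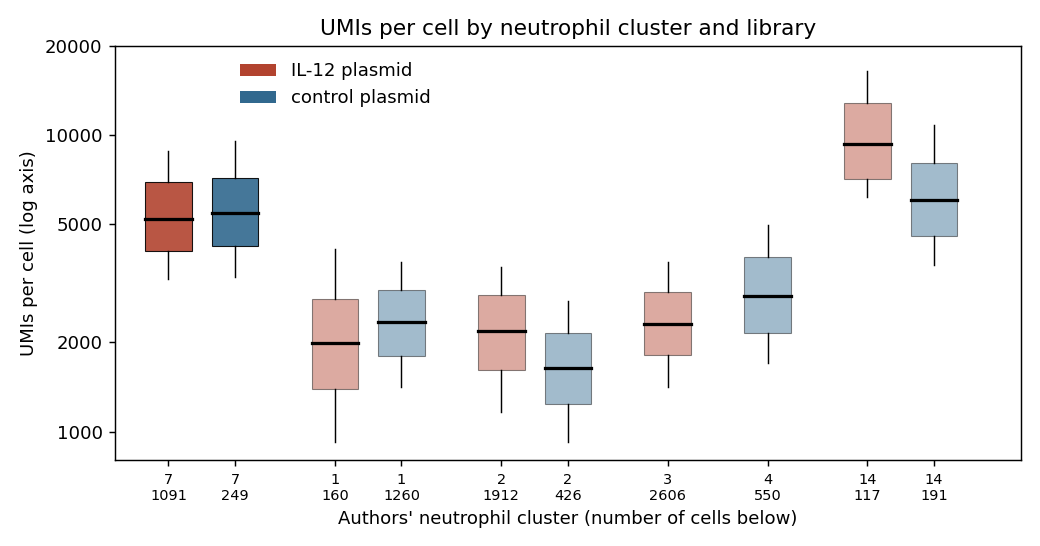
UMIs per cell (log axis) in each authors' cluster of neutrophils with at least 50 cells, for the IL-12 library (red) and the control library (blue). Boxes span the 25th to 75th percentile, lines the median and whiskers the 10th to 90th percentile; cluster 7 and cluster 14 stand above the other clusters.

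The excess was seen in nearly all measured genes. Of the measured genes, 99.8% had more UMIs per cell in cluster 7 than in other neutrophils in each library, with a median ratio of 2.35 in the IL-12 library and 2.23 in the control library. Genes counted as measured if the compared groups together held 50 or more of their UMIs and 5% or more of the cells in one of them had any. A gene could thus enter through the deeper cells of cluster 7 alone, so a share near 100% follows from the depth and is no test. Cluster 7 cells also held more different genes, with medians of 1050 against 574 in other neutrophils of the IL-12 library and 1233 against 685 in the control library. With every cell thinned to 2000 UMIs the medians came closer, at 575 in cluster 7 and 505 in other neutrophils of the IL-12 library and at 643.5 and 588 in the control library. That thinning left out 3 cluster 7 cells and 1795 other neutrophils of the IL-12 library, and 3 and 857 in the control library. The mitochondrial share of UMIs was low in all groups, with medians of 0.949% in cluster 7 and 0.881% in other neutrophils of the IL-12 library and 1.06% and 1.02% in the control library.

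Cluster 7 made up 18.5% of the neutrophils of the IL-12 library (exact binomial 95% interval 17.5 to 19.5) and 9.15% of those of the control library (8.09 to 10.3). Without cells with 2 or more UMIs of the macrophage and monocyte markers described further on, called macrophage UMIs here, the shares were 9.04% and 3.76%. Of all sorted cells it made up 8.41% (7.93 to 8.90) and 5.88% (5.19 to 6.64). These intervals, like those of all folds given here, cover counting error only, not the spread between mice. The remaining neutrophils lay in different clusters in the 2 libraries: clusters 3 and 2 held 2606 and 1912 cells in the IL-12 library, while clusters 1, 4 and 2 held 1260, 550 and 426 in the control library. A share of a cluster drawn on these same genes can move with that layout, and its part in the result was not tested.

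The label was checked by the level of 12 neutrophil markers, none of which was at 0 in cluster 7. The summed level of the list was 92549 CPM (counts scaled to 1000000 UMIs) in cluster 7 against 119892 CPM in other neutrophils of the IL-12 library, and 118717 CPM against 144551 CPM in the control library. In the authors' macrophages and CD8 T cells the same sum was 9660 CPM and 11519 CPM in the IL-12 library and 10079 CPM and 7782 CPM in the control library, far below cluster 7. The mere presence of a UMI of the list did not separate these cells, since 100% of cluster 7 cells had one and so did 94.7% of IL-12 and 99.3% of control macrophages. S100a8, which encodes a chain of calprotectin, the main protein of the neutrophil cytosol, stood at 30225 CPM in cluster 7 and 41127 CPM in other neutrophils of the IL-12 library, and at 46547 CPM and 57252 CPM in the control library, lower in cluster 7 in both but by less than 1.5-fold. Csf3r, the receptor for the growth factor G-CSF, was at 432 CPM in cluster 7 against 435 CPM in other neutrophils of the IL-12 library and at 614 CPM against 706 CPM in the control library. Cxcr2, the receptor for CXC chemokines that recruits neutrophils, was at 249 CPM against 303 CPM and at 477 CPM against 707 CPM, lower in cluster 7 in both libraries but by less than 1.5-fold.

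Scaled to total UMIs, the genes with the largest excess in cluster 7 were ones known from macrophages and from MHC class II presentation. The cells were clustered on these genes, so the comparison is a description with no test. At 1.5-fold or more, 359 of 3970 measured genes were higher in cluster 7 in the IL-12 library (9.04%) and 27 lower (0.68%). In the control library 525 of 4476 were higher (11.7%) and 143 lower (3.19%). Here too a gene could count as measured through the deeper cells of cluster 7 alone. With no filter on low counts, 1308 of 11086 genes were higher and 272 lower in the IL-12 library. In the control library 1984 of 10623 were then higher and 1049 lower. Of the 3770 genes measured in both libraries, 191 were higher in both, which is 63.5% of the 301 called in the IL-12 library and 45.05% of the 424 called in the control library. Lower in both were 7 genes, and 1 gene went opposite ways. The median log2 ratio over all measured genes was 0.09 in the IL-12 library and 0.05 in the control library.

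The 12 genes with the largest excess in both libraries were Mmp12, C1qc, C1qa, C1qb, Arg1, Apoe, Trem2, Aif1, Ms4a6c, H2-DMa, Gatm and H2-DMb2. Their folds ran between 2.80 for Ms4a6c and 4.26 for Arg1 in the IL-12 library and between 3.11 for H2-DMa and 7.09 for Mmp12 in the control library. C1qa, C1qb and C1qc encode the chains of the complement protein C1q, which tissue macrophages secrete. C1qa stood at 323 CPM in cluster 7 and 83.0 CPM in other neutrophils of the IL-12 library (3.89-fold, 3.60 to 4.19), and at 344 CPM and 65.0 CPM in the control library (5.29-fold, 4.66 to 6.01). Apoe, an apolipoprotein that macrophages make in quantity, was at 755 CPM in cluster 7 against 205 CPM in other neutrophils of the IL-12 library (3.69-fold, 3.52 to 3.87) and at 1079 CPM against 253 CPM in the control library (4.27-fold, 3.99 to 4.57). Mmp12, the macrophage elastase, was at 39.0 CPM against 9.35 CPM and at 69.3 CPM against 9.78 CPM. In the control library 49.1% of its cluster 7 UMIs came from 1 cell. Arg1, arginase, which breaks down arginine, was at 215 CPM against 50.5 CPM in the IL-12 library and at 199 CPM against 51.6 CPM in the control library.

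Genes of MHC class II presentation, by which antigen-presenting cells show peptides to CD4 T cells, were higher as a group. All 6 measured members were past 1.5-fold in the IL-12 library (median log2 ratio 1.36), where 9.04% of all measured genes were, and all 5 in the control library (1.68), where 11.7% were. Cd74, the invariant chain that guides class II molecules, was at 1681 CPM in cluster 7 and 569 CPM in other neutrophils of the IL-12 library (2.95-fold, 2.87 to 3.04) and at 929 CPM and 267 CPM in the control library (3.48-fold, 3.25 to 3.73). H2-Aa, a class II chain, was 2.63-fold higher (2.50 to 2.75) in the IL-12 library and 3.23-fold higher (2.89 to 3.60) in the control library.

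**Figure D2:**
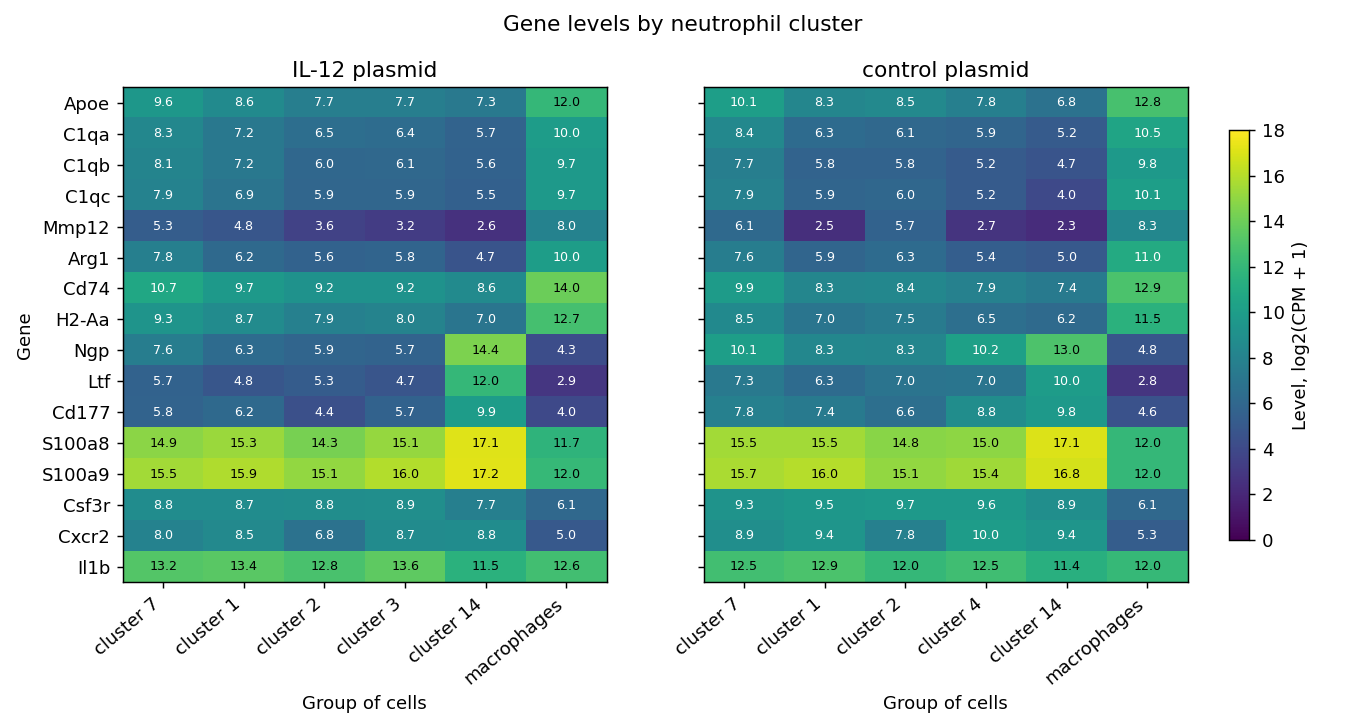
Levels as log2(CPM + 1) of 16 genes in cluster 7, the other neutrophil clusters of at least 50 cells and the authors' macrophages, in the IL-12 library (left) and the control library (right). Apoe, the C1q genes, Arg1, Cd74 and H2-Aa were higher in cluster 7 than in each other neutrophil cluster shown and lower than in macrophages; Ngp and Ltf peaked in cluster 14.

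Macrophage markers moved with these genes. The list of 13 macrophage and monocyte markers, of which C1qa, C1qb, C1qc and Apoe are members and none was at 0 in cluster 7, summed to 1859 CPM in cluster 7 and 604 CPM in other neutrophils of the IL-12 library, and to 2115 CPM and 514 CPM in the control library. That was 21.6% and 7.03% of the level in the authors' macrophages of the IL-12 library, and 17.6% and 4.29% in the control library. With cells thinned to 2000 UMIs, a UMI of a C1q gene was found in 44.2% of cluster 7 cells (41.2 to 47.2), 21.6% of other neutrophils (20.2 to 23.1) and 20.9% of CD8 T cells (19.5 to 22.3) of the IL-12 library. In the control library it was found in 41.1% of cluster 7 cells (34.8 to 47.5), 19.0% of other neutrophils (17.1 to 21.0) and 12.6% of CD8 T cells (10.1 to 15.4). CD8 T cells should lack C1q, and their median depths were 6434 UMIs in the IL-12 library and 5794 in the control library. The share in other neutrophils lay within the interval of that background in the IL-12 library and above it in the control library. The share in cluster 7 lay above it in both. For the whole macrophage list the shares in the IL-12 library were closer, at 61.9% of cluster 7 (59.0 to 64.8), 45.9% of other neutrophils and 57.1% of CD8 T cells (55.4 to 58.8). In the control library they were 69.5% (63.3 to 75.2), 44.5% and 42.7% (38.8 to 46.6).

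The macrophage UMIs were gathered in some of the cells, in cluster 7 and in other neutrophils alike. In the IL-12 library the 109 of 1091 cluster 7 cells with most of them held 54.2% of the list's UMIs in cluster 7. The 481 of 4817 other neutrophils with most of them held 58.6% of those in other neutrophils. In the control library 24 of 249 cluster 7 cells held 52.5% in this way, and 247 of 2472 other neutrophils held 58.5%. In the IL-12 library 314 cells of cluster 7 (28.8%) had 10 or more UMIs of the list and 353 (32.4%) had 0 or 1, against 2.93% and 73.7% of other neutrophils. In the control library 79 cells of cluster 7 (31.7%) had 10 or more and 73 (29.3%) had 0 or 1, against 2.67% and 75.5% of other neutrophils. Without cells with 2 or more UMIs of the list, 102 of 3656 measured genes were higher in cluster 7 in the IL-12 library (2.79%) and 42 lower (1.15%). In the control library, with 73 cluster 7 cells left, 418 of 3971 were higher and 317 lower (7.98%). Depth did not follow this division. The median was 4955, 5401 and 5107 UMIs for cluster 7 cells with 10 or more, 2 to 9 and 0 or 1 macrophage UMIs in the IL-12 library, and 4979, 5924 and 5497 in the control library. The neutrophil list summed to 75620 CPM in the IL-12 cluster 7 cells with 10 or more macrophage UMIs and to 101261 CPM in those with 0 or 1, and to 101024 CPM and 124607 CPM in the control library.

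**Figure D3:**
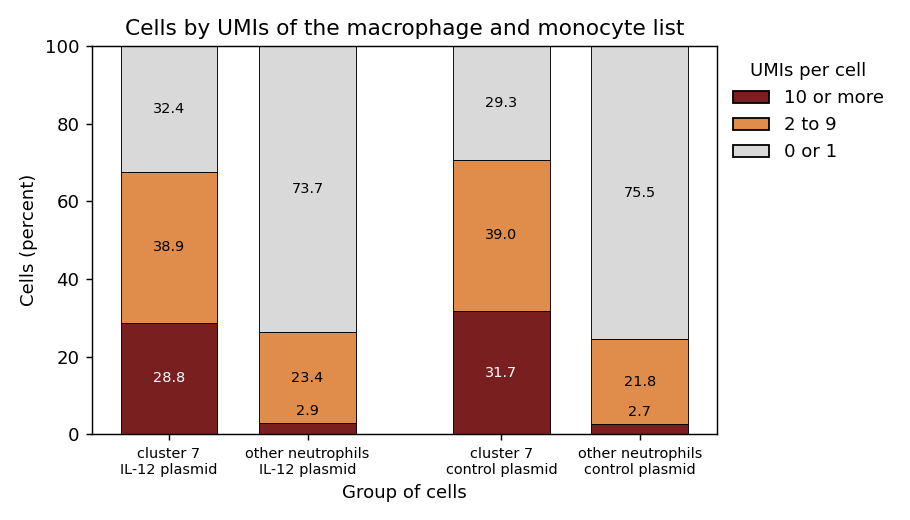
Percent of cells with 10 or more, 2 to 9, and 0 or 1 UMIs of the macrophage and monocyte list, in cluster 7 and other neutrophils of the IL-12 library and of the control library. Cells with 10 or more made up 28.8% of IL-12 cluster 7 and 31.7% of control cluster 7, against 2.93% and 2.67% of other neutrophils. The counts are not scaled to depth, and cluster 7 cells held more UMIs.

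In cluster 7 cells with 0 or 1 macrophage UMIs, Cd74, H2-Aa and Arg1, which are not members of that list, were within 1.5-fold of like cells among other neutrophils. Cd74 stood at 246 CPM in these cluster 7 cells and 334 CPM in other neutrophils with 0 or 1 macrophage UMIs in the IL-12 library, and at 106 CPM and 152 CPM in the control library. H2-Aa was at 119 CPM against 164 CPM in the IL-12 library and at 72.8 CPM against 59.8 CPM in the control library. Arg1 was at 40.7 CPM against 32.7 CPM and at 35.2 CPM against 38.5 CPM. The median depth of these cells was still 5107 UMIs in cluster 7 and 2187 in other neutrophils of the IL-12 library, and 5497 and 2309 in the control library. Among cells with 0 or 1 macrophage UMIs a gap in median depth was thus still present, and its cause was not tested. Cd74, H2-Aa and Arg1 were within 1.5-fold in these cells. A limit of 1 UMI is a lower CPM in the deeper cells of cluster 7, and the part of that in these levels was not tested.

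Scores of a doublet caller moved with cluster 7 as well. Its automatic threshold called 0 cells in the IL-12 library and 1 in the control library (0.0236%), so it gave no usable calls. The median score was 0.0832 in cluster 7 and 0.0449 in other neutrophils of the IL-12 library, and 0.108 and 0.0592 in the control library. The 6% of cells with the highest scores of each library included 3.76% of cluster 7 and 0.789% of other neutrophils in the IL-12 library, and 18.5% and 2.35% in the control library. For cluster 7 cells with 10 or more, 2 to 9 and 0 or 1 macrophage UMIs, this share was 5.73%, 4.48% and 1.13% in the IL-12 library. In the control library it was 29.1%, 16.5% and 9.59%. Other neutrophils in the same order had 1.42%, 2.04% and 0.366% in the IL-12 library and 13.6%, 3.15% and 1.71% in the control library. A T cell receptor clone was recorded for 7 of 1091 cluster 7 cells and 2 of 4817 other neutrophils of the IL-12 library, and for 1 of 249 and 0 of 2472 in the control library. A count of 0 of 2472 cells allows a share of up to 0.121% with 3 counts as the limit. The part of droplets with more than 1 cell in the depth or in the macrophage genes was not tested beyond these values.

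Only 7 genes were lower in cluster 7 in both libraries, in 2 groups and a remainder. Ngp and Ltf, which encode granule proteins made during neutrophil maturation in the marrow, and Cd177, a surface glycoprotein stored with such granules, formed the first. Ngp was at 200 CPM in cluster 7 and 2190 CPM in other neutrophils of the IL-12 library (10.97-fold lower, 10.4 to 11.6), and at 1112 CPM and 1956 CPM in the control library (1.76-fold lower, 1.67 to 1.85). This direction rested on cluster 14, which held 26776 of the 27406 Ngp UMIs of the other IL-12 neutrophils. Without cluster 14 the log2 ratios of Ngp were 1.82 in the IL-12 library and 0.92 in the control library, those of Ltf 0.72 and 0.67, and that of Cd177 in the IL-12 library 0.37, all on the other side of 0. Cd3g, a T cell receptor subunit, and Nkg7 and Gzmb, genes of killer lymphocytes, formed the second group, with folds of 1.73 to 3.39 lower. In the depth range of cluster 7 the log2 ratio was on the other side of 0 for Nkg7 in the IL-12 library (0.0365) and for Gzmb in the control library (0.13, and 0.0829 with cells thinned to 2000 UMIs). That of Cd3g in the IL-12 library was 0.52 in this range without cluster 14 and cells with 2 or more macrophage UMIs. The summed T cell list was likewise lower, at 135 CPM in cluster 7 and 192 CPM in other neutrophils of the IL-12 library and at 52.3 CPM and 84.4 CPM in the control library. G6pdx, an enzyme that supplies reducing power for the oxidative burst, stood at 14.5 CPM in cluster 7 and 27.7 CPM in other neutrophils of the IL-12 library and at 30.7 CPM and 49.9 CPM in the control library, and without cluster 14 it was 0.30 higher on the log2 scale in the IL-12 library.

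Several inflammatory genes of neutrophils were within 1.5-fold between cluster 7 and other neutrophils. Cxcl2, a chemokine that recruits more neutrophils, was at 41378 CPM in cluster 7 and 44998 CPM in other neutrophils of the IL-12 library, and at 25386 CPM and 25739 CPM in the control library. Il1b, an inflammatory cytokine, was at 9142 CPM against 9407 CPM in the IL-12 library and at 5948 CPM against 5867 CPM in the control library. Ccl3, Ccl4, Cxcl10, Cd274 (the checkpoint ligand PD-L1), Ptgs2 (cyclooxygenase-2) and the nuclear RNA Malat1 were within 1.5-fold in both libraries, and Siglecf, measured only in the control library, was at 15.7 CPM against 14.9 CPM. Tnf differed between the libraries: it was at 1012 CPM against 932 CPM in the IL-12 library and at 387 CPM against 170 CPM in the control library (2.27-fold, 2.06 to 2.51). Against cluster 2 alone the Tnf log2 ratio of the control library was -0.0782.

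Among the gene lists, 15 of 15 measured targets and regulators of NF-kB and 13 of 13 genes of the NADPH oxidase and Fc receptors were within 1.5-fold in each library, as were 14 of 15 migration and chemoattractant receptors. Most measured genes were also within 1.5-fold: 9.04% were higher and 0.68% lower in the IL-12 library, and 11.7% and 3.19% in the control library. Genes of translation and ribosome assembly leaned higher, with 5 of 16 higher in the IL-12 library (median log2 ratio 0.34) and 5 of 15 in the control library (0.41), and none lower, beside 9.04% and 11.7% of all measured genes that were higher. Eef1a1, the elongation factor that brings transfer RNAs to the ribosome, was at 1014 CPM in cluster 7 and 673 CPM in other neutrophils of the IL-12 library (1.51-fold, 1.46 to 1.56) and at 537 CPM and 326 CPM in the control library (1.65-fold, 1.52 to 1.79). Without cells with 2 or more UMIs of other lineages its log2 ratio in the IL-12 library was -0.0543. Proteasome genes (2 and 4 of 12 higher, medians 0.39 and 0.43) and heat shock chaperones (1 and 4 of 9 higher, medians 0.37 and 0.51) had medians above the 0.09 and 0.05 of all measured genes. Of the 12 measured nuclear genes of the respiratory chain, 2 were higher in the IL-12 library and 1 in the control library, with medians of 0.33 and 0.35, beside 9.04% and 11.7% of all measured genes that were higher. Of the granule genes, 4 of 7 were lower in the IL-12 library (median -0.70) and 5 of 9 in the control library (-0.73). Without cluster 14 that median was 0.26 in the IL-12 library.

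**Figure D4:**
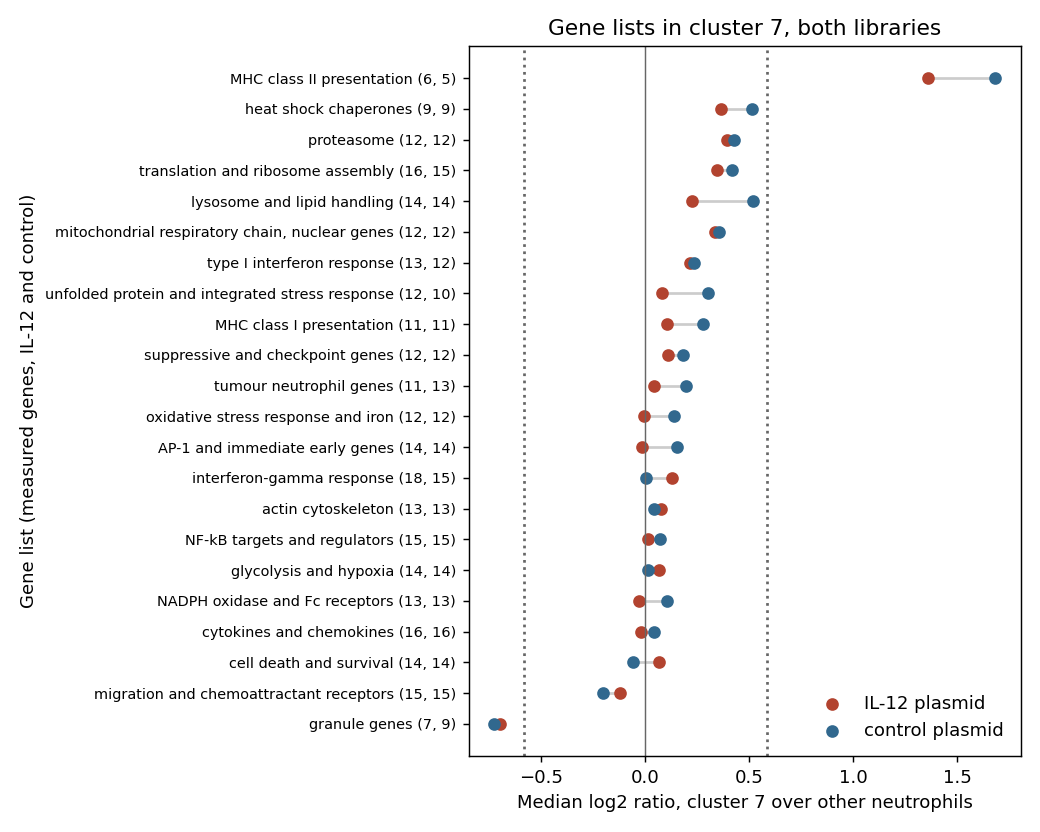
Median log2 ratio of cluster 7 over other neutrophils for each gene list with at least 3 measured genes, in the IL-12 library (red) and the control library (blue); the numbers of measured genes stand in parentheses, and dotted lines mark 1.5-fold. MHC class II presentation lies at 1.36 and 1.68, granule genes at -0.70 and -0.73, and all other lists between the dotted lines.

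To set cluster 7 against neutrophils of like depth, both groups were cut to the middle 80% of the depth range of cluster 7, and cluster 14 and all cells with 2 or more macrophage UMIs were left out, a choice made after the values were seen. This left 311 cluster 7 cells and 512 other neutrophils in the IL-12 library and 61 and 296 in the control library, with medians still apart at 5098 against 3778 and 5675 against 3946 UMIs. At 1.5-fold, 488 of 2944 measured genes were higher (16.6%) and 40 lower (1.36%) in the IL-12 library, and 335 of 2327 higher (14.4%) and 254 lower (10.9%) in the control library. The median log2 ratio over all measured genes was 0.27 in the IL-12 library and 0.06 in the control library. Of 2228 genes measured in both libraries, 75 were higher in both and 12 lower in both. With the shares called in each library some genes fall in both without any link, and the overlap was not tested. The genes named here from this comparison were chosen after their values were seen. The lower ones were led by stefins and their relatives, inhibitors of cysteine proteases that belong to a family of near-identical copies among which reads can be split: Stfa2 was at 485 CPM in cluster 7 and 993 CPM in other neutrophils of the IL-12 library and at 1062 CPM and 2240 CPM in the control library. Ccl4, a chemokine for T cells and monocytes, was at 7114 CPM against 13352 CPM in the IL-12 library and at 2399 CPM against 3626 CPM in the control library. Among the higher ones, Ccl2, which draws monocytes, was at 102 CPM against 53.2 CPM and at 318 CPM against 91.7 CPM, with a UMI in 7.72% against 5.08% and 21.3% against 10.8% of cells. Clec4n, the fungal receptor dectin-2, was at 392 CPM against 257 CPM and at 247 CPM against 73.4 CPM. Of the leading genes of the first comparison, Gatm was at 24.5 CPM in cluster 7 and 7.81 CPM in other neutrophils of the IL-12 library (3.14-fold, 1.72 to 5.99) and at 11.4 CPM and 19.9 CPM in the control library, from 4 and 25 UMIs. Arg1 was 1.65-fold higher (1.15 to 2.40) in the IL-12 library and at 39.7 CPM against 43.1 CPM in the control library. MHC class II genes were past 1.5-fold in 0 of 4 and 1 of 4 measured members here. Median log2 ratios in the IL-12 and control libraries were 0.30 and 0.29 for translation and ribosome assembly and 0.40 and 0.19 for proteasome genes. They were 0.43 and 0.39 for heat shock chaperones and 0.36 and 0.35 for the respiratory chain, beside the 0.27 and 0.06 of all measured genes.

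Within cluster 7, interferon targets and chemokines were higher and granule genes lower in the IL-12 library than in the control library. Of 4560 measured genes, 438 were higher with IL-12 plasmid (9.61%) and 1505 lower (33%), with a median log2 ratio of -0.32 over all of them. The same comparison in other neutrophils gave 331 higher (10.6%) and 1291 lower (41.4%) of 3119, with a median of -0.43. Centred on the cluster 7 median of -0.32, 847 of the 4560 genes were higher with IL-12 plasmid in cluster 7 (18.6%) and 755 lower (16.6%). Both cell groups come from the same 2 pools of mice and were processed together, so the treatment and the library cannot be told apart in either.

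The genes with the largest excess with IL-12 plasmid were led by interferon targets. The 12 named by rank were Gbp4, Mcpt2, Iigp1, Csf3, Cd3e, Gbp8, Ifit3b, H2-T10, Mcpt1, Rn7sk, Cxcl9 and Ly6a. Gbp4, a guanylate-binding protein induced by interferon-gamma, was at 284 CPM in IL-12 cluster 7 and 17.7 CPM in control cluster 7 (16.1-fold, 11.03 to 24.5), and at 261 CPM and 24.9 CPM in other neutrophils (10.48-fold higher). It was found in 50.3% of IL-12 and 8.03% of control cluster 7 cells. Iigp1, an immunity-related GTPase, had 147 UMIs in IL-12 cluster 7 and 2 in control cluster 7 (17.9-fold, 4.88 to 150). Cxcl9, a chemokine for T cells, was at 36.7 CPM against 6.54 CPM (5.61-fold, 3.00 to 11.9), and Ly6a, a surface protein that interferons induce, at 52.8 CPM against 10.47 CPM (5.05-fold, 3.06 to 8.94). Csf3, the gene for G-CSF, was at 73.9 CPM in IL-12 cluster 7 and 7.20 CPM in control cluster 7 (10.3-fold, 5.69 to 20.7), with UMIs in 11.6% and 2.01% of cells. Gbp8 and Ifit3b belong to families of similar genes, as do Gbp4 and H2-T10, so their reads may be shared between copies.

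Some of these genes are marks of other cells. Mcpt1 and Mcpt2, proteases of mast cells, and Cd3e, a T cell receptor subunit, were among the 12. Cd3e had 129 UMIs in IL-12 cluster 7 and 3 in control cluster 7, and Mcpt2 had 144 and 1. In other neutrophils the folds were 1.91 for Cd3e and 42.7 for Mcpt2. The T cell list summed to 135 CPM in IL-12 and 52.3 CPM in control cluster 7, and 192 CPM and 84.4 CPM in other neutrophils. CD8 T cells were 3264 of 12979 cells of the IL-12 library and 649 of 4232 of the control library. The part of free RNA in these genes was not tested.

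Type I interferon response genes were higher together: 11 of 13 measured members were higher in IL-12 cluster 7 and none lower, where 9.61% of all measured genes were higher and 33% lower, with a median log2 ratio of 1.12 against -0.32 over all genes. In other neutrophils 9 of 12 were higher, with a median of 1.46. The list summed to 8591 CPM in IL-12 and 3916 CPM in control cluster 7, and to 8252 CPM and 3195 CPM in other neutrophils. Thinned to 2000 UMIs, the median cluster 7 cell held 13 UMIs of the list in the IL-12 library and 5 in the control library. Rsad2, the antiviral enzyme viperin, was at 1178 CPM in IL-12 and 501 CPM in control cluster 7 (2.35-fold, 2.18 to 2.54). Ifit1, which binds viral RNA, was at 312 CPM and 133 CPM (2.35-fold, 2.03 to 2.73), Ifit2 at 111 CPM and 23.5 CPM (4.71-fold, 3.37 to 6.77), and Ifit3 at 63.7 CPM and 17.0 CPM (3.75-fold, 2.52 to 5.81). Usp18, which damps interferon signalling, was at 125 CPM and 67.4 CPM (1.86-fold, 1.51 to 2.30).

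Promoters of these genes are shown because members of the list moved together and the interferon-stimulated response element is the best-known motif of such genes. The window is the 250 bases before the start of the gene in RefSeq (GRCm38.p6), and the search was for GAAA followed, after any 2 bases, by a second GAAA on either strand, a core of that element. This core occurred in 978 of 32851 promoter windows (2.98%) and in those of 4 of the 9 members higher in IL-12 cluster 7 that matched a promoter by symbol. Over the whole type I list it occurred in 6 of 12 matched promoters, so it was not particular to the higher members. In the list of interferon-gamma response genes it occurred in 9 of 12, and in 3 of 4 of the higher members. List members counted once each if any of their windows held the core, while the share over all promoters is per window, so these are unlike measures. A match is a description and not a bound site. Below, 5′ to 3′ on the strand of the gene, capitals mark the matches in the windows of the members named in the text.
Ifit3, chr19:34583279-34583528, plus strand: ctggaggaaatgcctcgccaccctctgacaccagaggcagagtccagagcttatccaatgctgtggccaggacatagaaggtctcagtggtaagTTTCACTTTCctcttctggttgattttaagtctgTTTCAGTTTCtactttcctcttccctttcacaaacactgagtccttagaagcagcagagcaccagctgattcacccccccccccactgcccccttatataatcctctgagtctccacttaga
Rsad2, chr12:26456453-26456702, minus strand: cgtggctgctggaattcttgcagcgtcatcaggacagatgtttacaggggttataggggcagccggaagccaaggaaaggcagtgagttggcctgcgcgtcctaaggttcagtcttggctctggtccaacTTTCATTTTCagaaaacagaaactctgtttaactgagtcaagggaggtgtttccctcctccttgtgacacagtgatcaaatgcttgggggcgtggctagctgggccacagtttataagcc
Ifit1, chr19:34640639-34640888, plus strand: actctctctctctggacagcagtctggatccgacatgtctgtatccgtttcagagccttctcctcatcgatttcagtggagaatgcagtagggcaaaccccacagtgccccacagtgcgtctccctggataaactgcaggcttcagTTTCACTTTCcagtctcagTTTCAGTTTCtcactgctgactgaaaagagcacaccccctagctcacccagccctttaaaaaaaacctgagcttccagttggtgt

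Of these 3 windows, those of Ifit3 and Ifit1 hold 2 matches each and that of Rsad2 holds 1, which lies 120 bases before the start.

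The interferon-gamma list leaned higher, with members both ways. Of 18 measured members 7 were higher in IL-12 cluster 7 and 1 lower, with a median log2 ratio of 0.51. Of all measured genes 9.61% were higher and 33% lower there, with a median of -0.32. In other neutrophils 4 of 14 were higher and 3 lower, with a median of 0.35, beside 10.6% and 41.4% of all measured genes and a median of -0.43. Cxcl10, a chemokine for T cells that both kinds of interferon induce, was at 144 CPM in IL-12 and 78.5 CPM in control cluster 7 (1.84-fold, 1.52 to 2.24). Nos2, the inducible nitric oxide synthase, went the other way, at 82.2 CPM and 177 CPM (2.16-fold lower, 1.85 to 2.50). Cd274 was at 863 CPM and 546 CPM (1.58-fold, 1.47 to 1.70). MHC class II genes were higher in 4 of 6 measured members, beside 9.61% of all measured genes. Cd74 was at 1681 CPM in IL-12 and 929 CPM in control cluster 7, H2-Aa at 636 CPM and 367 CPM and H2-DMa at 63.4 CPM and 39.2 CPM. These genes lay mostly in the cells with macrophage UMIs.

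Chemokines and cytokines were higher with IL-12 plasmid in 8 of 16 measured members and lower in 3 (median log2 ratio 0.55), and in 9 and 3 of 15 in other neutrophils (0.68). Of all measured genes 9.61% were higher and 33% lower in cluster 7, and 10.6% and 41.4% in other neutrophils. Ccl4 was at 7322 CPM in IL-12 and 2466 CPM in control cluster 7 (2.97-fold, 2.87 to 3.07), Ccl3 at 6213 CPM and 2913 CPM (2.13-fold, 2.07 to 2.20), and Tnf at 1012 CPM and 387 CPM (2.61-fold, 2.40 to 2.85). Ccl5, a chemokine that killer lymphocytes also make, was at 174 CPM and 45.1 CPM (3.86-fold, 3.02 to 4.99). Cxcl2 was 1.63-fold higher (1.61 to 1.65) and Il1b 1.54-fold higher (1.50 to 1.57). Immediate early genes were higher in 7 of 14 members, beside 9.61% of all measured genes, and lower in 3, a smaller share than the 33% of all measured genes, with Fos at 525 CPM against 217 CPM and the phosphatase gene Dusp1 at 1822 CPM against 891 CPM. Hcar2, a receptor for ketone bodies and niacin, was at 3517 CPM in IL-12 and 979 CPM in control cluster 7, and Spp1, osteopontin, at 3938 CPM and 1141 CPM.

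Granule genes and receptors were lower. Of the 9 measured granule genes 8 were lower in IL-12 cluster 7, beside 33% of all measured genes (median log2 ratio -1.59) and 6 lower and 2 higher in other neutrophils (-1.21). Mmp8, neutrophil collagenase, was at 78.4 CPM in IL-12 and 290 CPM in control cluster 7 (3.70-fold lower, 3.25 to 4.22), and Retnlg, a resistin-like secreted protein, at 1067 CPM and 3740 CPM (3.50-fold lower, 3.38 to 3.63). Of the 15 migration and chemoattractant receptors 8 were lower and 1 higher, in a background where 33% of all measured genes were lower. Cxcr2 was at 249 CPM in IL-12 and 477 CPM in control cluster 7 (1.91-fold lower, 1.75 to 2.09) and Itgam, the integrin CD11b, at 93.7 CPM and 250 CPM (2.67-fold lower, 2.34 to 3.04). Cd177 was 4.24-fold lower (3.64 to 4.95). Csf3r was at 432 CPM and 614 CPM, S100a9 at 47246 CPM and 53656 CPM, and Ptgs2 at 340 CPM and 391 CPM, each within 1.5-fold; S100a8 was 1.54-fold lower (1.53 to 1.55).

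The 12 genes with the lowest ratios were Retnla, Chil3, Klhl6, Crispld2, Hspa1b, Ngp, Rn7s1, Mustn1, Map3k14, Mprip, Palld and Crebl2. Retnla and Chil3, secreted proteins known from alternatively activated myeloid cells, had 14 and 17 UMIs in IL-12 cluster 7 and 227 and 174 in control cluster 7, which is 66.4-fold (38.8 to 123) and 41.9-fold lower (25.4 to 73.6). The Retnla UMIs of control cluster 7 lay in 17 cells, with 84 in 1 of them, and those of Chil3 in 62 cells. In other neutrophils Retnla was 46.3-fold lower (34.9 to 62.7) and Chil3 9.02-fold lower (8.01 to 10.2). Hspa1b, an inducible chaperone of the HSP70 family, was at 63.7 CPM in IL-12 and 358 CPM in control cluster 7 (5.63-fold lower, 4.94 to 6.42). Beside Ngp, the other 8, from Klhl6 to Crebl2, were 5.36-fold to 8.57-fold lower.

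Ngp and Ltf did not follow the other neutrophils. Ngp was at 200 CPM in IL-12 and 1112 CPM in control cluster 7 (5.57-fold lower, 5.17 to 5.99), and at 2190 CPM and 1956 CPM in other neutrophils. Few cells carried it: 134 cells of IL-12 and 58 of control cluster 7 had a UMI, and 1 control cell held 369 of 1700 UMIs. Over the cluster 7 cells of the depth range shared by both libraries, the log2 ratio of Ngp was 0.72, and without cells with 2 or more macrophage UMIs it was 0.33, both on the other side of 0.

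**Figure D5:**
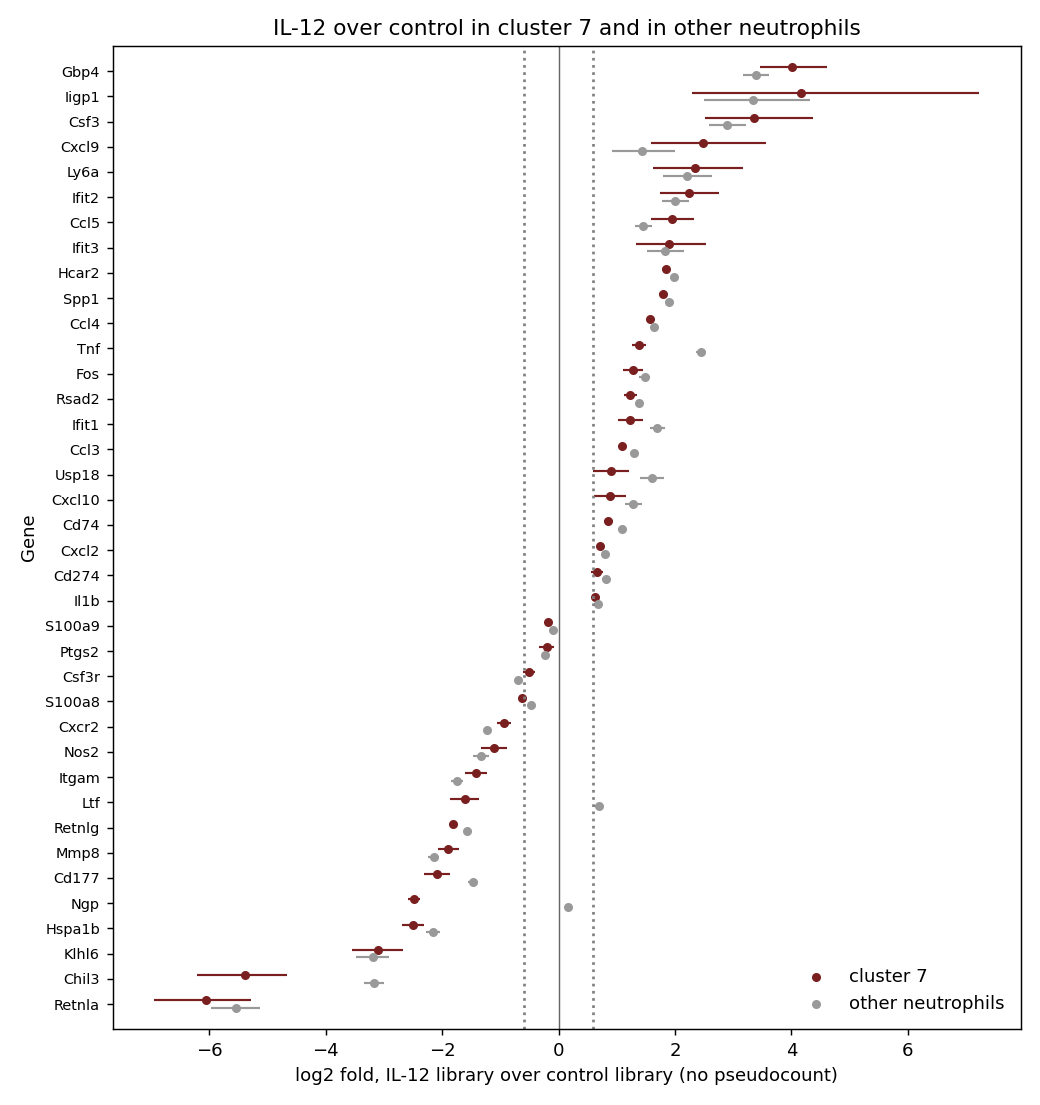
Log2 fold of the IL-12 library over the control library, without a pseudocount, for 38 genes in cluster 7 (dark red) and in other neutrophils (grey); lines are exact Poisson 95% intervals, which cover counting error only, and dotted lines mark 1.5-fold. The points of both groups lie on the same side of 0 for all genes shown but Ltf and Ngp.

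Genes that marked cluster 7 were also compared between the libraries. C1qa was at 323 CPM in IL-12 and 344 CPM in control cluster 7, C1qc at 246 CPM and 237 CPM, C1qb at 271 CPM and 209 CPM, Arg1 at 215 CPM and 199 CPM, and Apoe at 755 CPM and 1079 CPM, each within 1.5-fold. Mmp12 was at 39.0 CPM and 69.3 CPM, 1.78-fold lower (1.40 to 2.24), and reversed without the cells with the highest doublet scores (log2 ratio 1.41). Leaving out the barcodes found in both libraries changed the counts of genes past 1.5-fold by less than 1.5 times.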

How the data were processed

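Single-cell 5′ gene expression libraries were made from live CD45+ cells of 1 pool of 3 mice per treatment. Per the submitters' processing notes, Cell Ranger 2.1.0, STAR 2.6.1 and Partek were used with mm10; a Partek version was not given in sources used here. The deposited values are log2(CPM + 1), counts scaled to 1000000 UMIs, for 11407 genes, with the authors' cluster and class of each cell. Undoing the log and dividing by each cell's step gave whole UMIs within 0.1 for all but 11 values of the IL-12 table and 7 of the control table. Library totals were 59956927 and 17306852 UMIs, with 766 to 19603 UMIs per IL-12 cell and 655 to 19573 per control cell. The genes of the tables hold 70.4% and 72.9% of these UMIs.

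UMIs were summed per group and divided by all UMIs of its cells (CPM); log2 ratios carry a pseudocount of 1 CPM, folds none. A gene was measured at 50 UMIs over the groups and a UMI in 5% of the cells of either, and called at 1.5-fold. Intervals are exact, at 95%: Poisson for folds and binomial (Clopper-Pearson) for shares. With 1 library per treatment no test was made. Doublets were scored with Scrublet in Scanpy 1.11.5, and the scripts ran on numpy 2.4.6, scipy 1.17.1 and pandas 2.3.3; the steps were tested on simulated data. Genes named are the 12 highest and 12 lowest of each comparison that passed the call (for the clusters, in both libraries; only 7 were lower), up to 4 members of each list and a fixed set of neutrophil genes, 1 of which is not reported here; the ranks skip immunoglobulin and T cell receptor segments, ribosomal protein and mitochondrial genes and unnamed gene models. The members and lists were chosen with earlier results of these data known. T cell receptor libraries were used only through the clone column of the tables.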

Additional observations from a re-analysis of the deposited data

Results flagged for a closer look

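Ltf, which encodes the granule protein lactoferrin, was the 1 gene of 3115 measured in both cell groups that was past 1.5-fold in opposite directions between them. Its log2 ratio of IL-12 over control was -1.59 in cluster 7, at 50.5 CPM in the IL-12 library and 154 CPM in the control library, and 0.69 in other neutrophils, at 420 CPM and 260 CPM. The difference between the groups was not tested. The cluster 7 ratio was 0.34 without cells with 2 or more macrophage UMIs and 1.04 without cells with 2 or more UMIs of other lineages, the same side of 0 as in other neutrophils. In cluster 7, 1 cell held 15.2% of the 316 IL-12 UMIs and 1 cell held 40.7% of the 236 control UMIs. Cluster 14 held 4917 of the 5260 Ltf UMIs of the other IL-12 neutrophils.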

How the results depend on the processing

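Each treatment had 1 library, so leaving out a replicate could not be done. No paired analysis was possible because each treatment is 1 pooled library and no result comes from a test. The precision of a gene is limited by its UMIs, and the control cluster 7 by its 249 cells. Most alternatives of cells were chosen after seeing the data: those without cluster 14, without macrophage UMIs, without the highest doublet scores and without shared barcodes. Where a value moved, the cause was not tested. The named genes past 1.5-fold numbered 22 in the IL-12 library, 23 in the control library and 54 in the treatment comparison. All of them stayed past 1.5-fold in the same direction with CPM over the genes of the table, with no filter and without called doublets. Without cells with 2 or more macrophage UMIs 5 of 22, 10 of 23 and 46 of 54 did so. In that setting 11 of 22, 10 of 23 and 3 of 54 changed direction. Apoe, C1qa, C1qb and C1qc are members of the list that this filter uses. A limit of 1 UMI is also a lower CPM in the deeper cells of cluster 7. A change of these genes between the clusters thus follows in part from the filter and is no test. The 359 genes higher in cluster 7 in the IL-12 library were 148 with a pseudocount of 10 CPM, 1308 with no filter on low counts, 182 without cells with 2 or more UMIs of other lineages, 108 at 2-fold, 1148 in the depth range of cluster 7, 752 against cluster 1 alone, 760 against cluster 2 alone, 831 against cluster 3 alone and 102 without cells with 2 or more macrophage UMIs. The 27 genes lower in cluster 7 in the IL-12 library were 272 with no filter on low counts, 42 centred on the median, 11 thinned to 2000 UMIs, 101 without cells with 2 or more UMIs of other lineages, 10 at 2-fold, 54 in the depth range of cluster 7, 135 with the other clusters weighted equally, 726 against cluster 1 alone, 339 against cluster 2 alone, 52 against cluster 3 alone, 17 without cluster 14 and 42 without cells with 2 or more macrophage UMIs. The 525 genes higher in cluster 7 in the control library were 214 with a pseudocount of 10 CPM, 1984 with no filter on low counts, 121 at 2-fold, 991 in the depth range of cluster 7 and 335 in that range without cluster 14 and cells with 2 or more macrophage UMIs. The 143 genes lower in cluster 7 in the control library were 51 with a pseudocount of 10 CPM, 1049 with no filter on low counts, 387 without cells with 2 or more UMIs of other lineages, 12 at 2-fold, 305 in the depth range of cluster 7, 626 against cluster 2 alone, 1044 against cluster 4 alone, 317 without cells with 2 or more macrophage UMIs and 254 in that range without cluster 14 and cells with 2 or more macrophage UMIs. The 438 genes higher with IL-12 plasmid in cluster 7 were 1475 with no filter on low counts, 847 centred on the median, 263 without cells with 2 or more UMIs of other lineages and 189 at 2-fold. The 1505 genes lower with IL-12 plasmid in cluster 7 were 982 with a pseudocount of 10 CPM, 3040 with no filter on low counts, 755 centred on the median, 860 thinned to 2000 UMIs, 498 without cells with 2 or more UMIs of other lineages, 575 at 2-fold and 839 without cells with 2 or more macrophage UMIs. The share of 18.5% in the IL-12 library became 8.41% of all sorted cells, 7.24% without cells with 2 or more UMIs of other lineages and 9.04% without cells with 2 or more macrophage UMIs. The share of 9.15% in the control library became 5.88% of all sorted cells, 3.10% without cells with 2 or more UMIs of other lineages and 3.76% without cells with 2 or more macrophage UMIs. In the IL-12 library the depth ratio of 2.28 was 2.601 against cluster 1 alone and 2.37 against cluster 2 alone, and the ratio of genes per cell of 1.14 was 1.09 thinned to 1000 UMIs. In the control library the depth ratio of 2.29 was 3.34 against cluster 2 alone and 1.91 against cluster 4 alone, and the ratio of genes per cell of 1.09 was 1.05 thinned to 1000 UMIs.

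The log2 ratios that changed direction were these. Filters on macrophage UMIs and on UMIs of other lineages act on Apoe, C1qa, C1qb and C1qc themselves, so changes of these genes under them are no test. Without cells with 2 or more UMIs of other lineages, the ratios in the IL-12 library were Aif1 -0.35, Apoe -1.02, C1qa -0.49, C1qb -0.85, C1qc -0.99, Cd74 -0.19, Eef1a1 -0.0543, G6pdx 0.11, Gatm -0.41, H2-Aa -0.43, Mmp12 -0.47, Ms4a6c -0.11, the median of granule genes 0.0466 and the median of MHC class II presentation -0.19. Arg1 -0.20, C1qa -0.17, C1qb -1.06, C1qc -0.56, Cd74 -0.15, Gatm -0.33, H2-DMb2 -1.62, Mmp12 -2.63 and Trem2 -0.0523 were the ratios in the control library. The ratios of IL-12 over control in cluster 7 were Ltf 1.04, Mmp12 2.05 and Ngp 2.25. In the depth range of cluster 7, the ratio in the IL-12 library was Nkg7 0.0365. Gzmb 0.13 was the ratio in the control library. Against cluster 1 alone, the ratios in the IL-12 library were Ltf 0.87, Ngp 1.33 and the median of granule genes 0.0315. Cd177 0.39, G6pdx 0.48, Ltf 0.98, Ngp 1.82 and the median of granule genes 0.50 were the ratios in the control library. Against cluster 2 alone, the ratios in the IL-12 library were Cd177 1.35, G6pdx 0.36, Ltf 0.42, Ngp 1.76 and the median of granule genes 0.58. Cd177 1.22, G6pdx 0.52, Ltf 0.32, Ngp 1.87, Tnf -0.0782 and the median of granule genes 0.64 were the ratios in the control library. Against cluster 3 alone, the ratios in the IL-12 library were Cd177 0.0779, G6pdx 0.35, Ltf 0.95, Ngp 1.93 and the median of granule genes 0.22. Without cluster 14, the ratios in the IL-12 library were Cd177 0.37, G6pdx 0.30, Ltf 0.72, Ngp 1.82 and the median of granule genes 0.26. Ltf 0.67 and Ngp 0.92 were the ratios in the control library. Without cells with 2 or more macrophage UMIs, the ratios in the IL-12 library were Aif1 -0.12, Apoe -1.28, C1qa -0.37, C1qb -0.78, C1qc -0.45, Cd74 -0.44, H2-Aa -0.46, H2-DMa -0.11, H2-DMb2 -0.18, Mmp12 -0.69, Ms4a6c -0.27 and the median of MHC class II presentation -0.45. Apoe -0.41, Arg1 -0.12, C1qa -0.00739, C1qb -0.62, C1qc -1.37, Cd74 -0.52, Gatm -0.74, H2-DMa -0.48, H2-DMb2 -2.00 and Mmp12 -2.58 were the ratios in the control library. The ratios of IL-12 over control in cluster 7 were Ltf 0.34, Mmp12 2.02 and Ngp 0.33. In that range without cluster 14 and cells with 2 or more macrophage UMIs, the ratios in the IL-12 library were Aif1 -0.0529, Apoe -0.63, C1qb -0.23, Cd3g 0.52, G6pdx 0.27, Ltf 1.02, Mmp12 -0.0978, Ms4a6c -0.11 and Nkg7 0.0778. Arg1 -0.11, C1qb -1.23, C1qc -0.14, Cd74 -0.19, Gatm -0.76, H2-DMb2 -1.38 and Mmp12 -1.38 were the ratios in the control library. Thinned to 2000 UMIs, the ratio in the control library was Gzmb 0.0829. Against cluster 4 alone, the ratio in the control library was Ltf 0.30. In the depth range shared by both libraries, the ratio of IL-12 over control in cluster 7 was Ngp 0.72. Without the 6% of cells with the highest doublet scores, the ratio of IL-12 over control in cluster 7 was Mmp12 1.41.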
